A study of Mus musculus with 6 samples.

Results

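The early growth response (EGR), nuclear receptor 4A (NR4A) and dual-specificity phosphatase (DUSP) immediate-early genes are 10 genes chosen by name: Egr1, Egr2, Egr3, Nr4a1, Nr4a2, Nr4a3, Ier2, Dusp1, Dusp2 and Dusp5. All 10 of them were found by gene ID among the 56884 genes of the count table, and all 10 passed the filter on low counts. RNA was sequenced from 3 spleens of passage-1 (P1) recipients, labelled as spleen with no selection, and from splenic B cells of 3 wild-type (WT) mice, labelled as B cell selected. P1 belongs to an adoptive transfer of Eµ-SOX11CCND1 cells, a mouse model of mantle cell lymphoma. The model is named for the Eµ immunoglobulin heavy chain enhancer, which acts in B lineage cells, and for the driver genes SOX11 and CCND1. The headers of the count columns call the WT mice BL6, and the ages, the recipients' strain and the number of donors behind P1 are not given in the sources used here. The P1 mice keep their label numbers, 3, 4 and 5. Since no WT column names a mouse, the 3 columns are written WT A, WT B and WT C. The labels give each library as a mouse of its own, but P1 mice that share a donor would not be independent tumours. Of counts in immunoglobulin heavy chain variable (Ighv) genes, Ighv1-69 took 55.5%, 92.6% and 96.8% in P1 replicates 3, 4 and 5. Of kappa variable (Igkv) counts, Igkv12-44 took 63.0%, 97.6% and 97.2%. Both were the most counted in each P1 library, whereas the most counted gene took 5.42% to 9.34% in WT. Whether the P1 tumours share a clone was not tested, so n = 3 counts mice. The headers of WT A and WT B share a name part that WT C lacks and whose meaning is not given in the sources used here. The p-values measure the spread between these libraries.

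Immediate-early genes are transcribed within minutes of a stimulus, without new protein synthesis, and their messenger RNAs are short-lived. In B cells, binding of antigen to the B cell receptor raises calcium and activates the Ras-ERK cascade, and these act through serum response factor with its ternary complex partners and through CREB at the promoters of such genes. EGR proteins are zinc finger transcription factors. NR4A proteins are nuclear receptors that act without a known natural ligand, and Nr4a1 (Nur77) is widely used as a reporter of antigen receptor signalling. DUSP proteins of this class remove phosphates from MAP kinases and so close the loop on the cascade that induces them. Immediate-early genes are also known to be induced when tissue is dispersed and cells are handled. Selection was applied to the WT samples alone, so handling, cell content, genotype and tumour cannot be told apart as sources of the differences below.

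The promoter sequences are shown because they carry the elements through which such genes are known to be induced. The 250 bases before the start of transcription are printed for the NR4A genes, Dusp1 and Dusp5, from RefSeq on GRCm38.p6, in the direction of transcription. The count table uses GRCm39, so these coordinates are not those of the table. Capitals mark TGACG or its reverse complement, the core of the cyclic AMP response element that CREB binds, and the CArG box that serum response factor binds. The windows are chr15:101266596-101266845 (plus strand) for Nr4a1, chr2:57124004-57124253 (minus) for Nr4a2, chr4:48045055-48045304 (plus) for Nr4a3, chr17:26508473-26508722 (minus) for Dusp1 and chr19:53528895-53529144 (plus) for Dusp5.
Nr4a1: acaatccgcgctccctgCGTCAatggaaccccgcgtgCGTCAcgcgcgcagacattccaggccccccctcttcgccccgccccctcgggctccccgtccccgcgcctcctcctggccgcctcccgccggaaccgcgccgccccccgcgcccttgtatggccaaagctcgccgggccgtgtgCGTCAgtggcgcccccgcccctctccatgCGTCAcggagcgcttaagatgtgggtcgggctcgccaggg
Nr4a2: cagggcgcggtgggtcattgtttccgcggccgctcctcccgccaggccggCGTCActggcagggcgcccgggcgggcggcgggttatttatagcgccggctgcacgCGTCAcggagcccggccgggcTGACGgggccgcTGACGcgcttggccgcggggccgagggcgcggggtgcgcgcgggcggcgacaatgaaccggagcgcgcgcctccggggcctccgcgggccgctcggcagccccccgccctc
Nr4a3: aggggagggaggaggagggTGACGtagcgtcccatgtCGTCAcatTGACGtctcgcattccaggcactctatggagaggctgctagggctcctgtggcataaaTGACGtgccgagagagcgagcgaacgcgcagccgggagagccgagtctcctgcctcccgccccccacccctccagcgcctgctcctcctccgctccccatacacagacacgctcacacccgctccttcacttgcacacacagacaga
Dusp1: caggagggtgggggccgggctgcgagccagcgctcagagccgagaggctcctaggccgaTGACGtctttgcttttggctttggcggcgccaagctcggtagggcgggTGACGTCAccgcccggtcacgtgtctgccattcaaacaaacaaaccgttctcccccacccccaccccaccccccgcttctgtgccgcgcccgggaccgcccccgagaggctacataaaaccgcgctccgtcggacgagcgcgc
Dusp5: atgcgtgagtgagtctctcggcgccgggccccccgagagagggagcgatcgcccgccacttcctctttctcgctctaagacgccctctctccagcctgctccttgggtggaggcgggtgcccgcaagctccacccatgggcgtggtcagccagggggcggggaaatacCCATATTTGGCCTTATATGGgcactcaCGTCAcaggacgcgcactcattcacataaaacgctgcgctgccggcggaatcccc

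Each NR4A window held 4 cores, with both strands counted. Of all 32851 promoter windows of that length, 0.137% held 4 or more and 17.8% held at least 1. These shares are not matched for the content of G and C bases. That content was 74.4%, 80.0% and 63.6% in the windows of Nr4a1, Nr4a2 and Nr4a3. Dusp1 held 3 cores, of which 2 overlap in the full palindrome TGACGTCA, a motif found in 1.55% of all windows. Dusp5 held 1 core and 2 adjacent CArG boxes, and 1.47% of all windows held at least 1 CArG box. Windows were used for 7 of the 10 genes, with 1 of 5 listed windows searched for Egr2, and neither marked motif was found in those of Egr2 and Dusp2. The EGR site GCGNGGGCG was found in Nr4a1, Nr4a2 and Dusp2 (4.70% of all windows). The AP-1 site TGANTCA (6.75%) and the NR4A site AAAGGTCA (1.34%) were found in no window of the 7. Both strands were searched for each motif. A match in letters is a description of the window and does not show binding.

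Library totals ran from 7510327 to 10363396 counts in P1 and from 12196413 to 14266132 in WT, and the 10 genes together took 2654 to 6390 counts in P1 and 31008 to 41962 in WT. Levels below are normalised CPM, counts scaled to a common library size after adjustment by the trimmed mean of M-values (TMM). All 22 pan-B cell markers were detected in every library, with summed levels of 1621 to 4344 CPM in P1 and 12496 to 13542 CPM in WT. All 11 T cell markers were detected in every library and summed to 231 to 637 CPM in P1 and 14.3 to 29.0 CPM in WT. The 14 neutrophil markers summed to 1163 to 8434 CPM in P1 and 4.22 to 11.7 CPM in WT, where 12 or 13 of them were above 0. The 10 erythroid markers, above 0 in every library, summed to 6625 to 222460 CPM in P1 and 55.6 to 84.6 CPM in WT. The 12 macrophage and monocyte markers were also above 0 in every library. They summed to 699.7 to 2605 CPM in P1 and 255 to 634 CPM in WT, so the selected B cells held RNA of such markers too. The mitochondrial genome took 17.4% of counts in P1 replicate 4, against 0.0854% to 3.40% in the other 5 libraries. Fewer cells of a type and less RNA per cell cannot be told apart in these bulk samples.

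Of the 10 genes, 6 fell in P1 spleen relative to WT B cells: Egr1, Egr2, Egr3, Nr4a1, Dusp1 and Dusp2. Among all 15462 tested genes 11.0% were called lower and 16.9% higher (edgeR quasi-likelihood test, Benjamini-Hochberg adjusted p under 0.05, n = 3 per group). The 10 genes had a median log2 fold change of -1.42, against 0.02 over all tested genes. In those same 6 genes all 3 P1 libraries lay below all 3 WT libraries, as they did in 24.9% of tested genes. None of the 10 was called higher by edgeR. At an unadjusted p under 0.05 edgeR gave 0 higher and 7 lower, with Ier2 added. Of all 15462 tested genes, 3457 were higher and 2733 lower at that unadjusted threshold. DESeq2 gave 7 lower and 0 higher (14.3% and 20.1% of all tested genes), and limma-voom 6 lower and 0 higher (12.6% and 15.7%). With edgeR, 7 were lower under library totals as the scaling (9.53% of all tested genes) and 7 with no filter on low counts (6.08%). Without WT A 6 were lower, without WT B 4 and without WT C 4, against 5.15%, 5.01% and 6.02% of all tested genes. Without P1 replicate 3 the number was 6, without replicate 4 it was 6 and without replicate 5 it was 7, against 14.2%, 9.86% and 12.0%. Nr4a2 and Dusp5 were the 2 with a positive log2 fold change, and neither passed the test. The plot of levels by library shows these groups side by side.

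**Figure D1:**
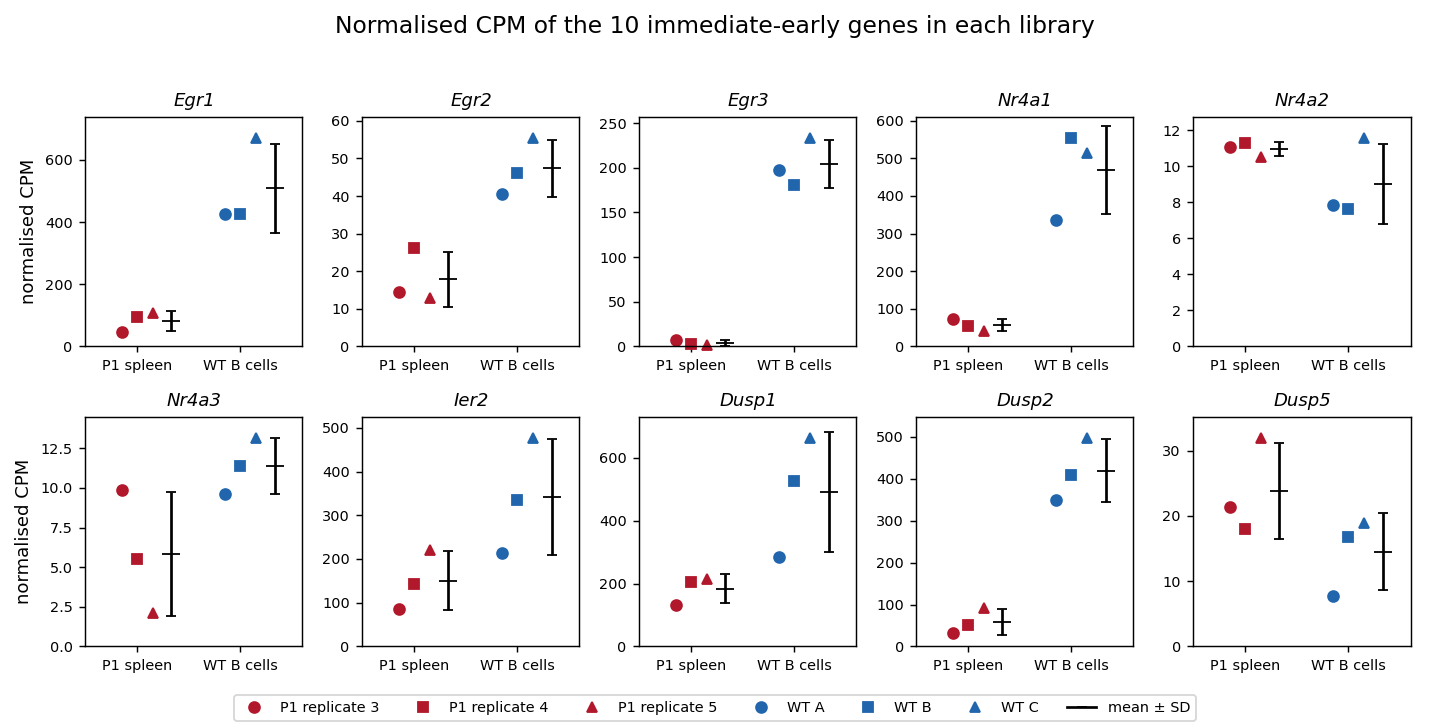
Normalised CPM (vertical axis, linear, from 0) of each of the 10 genes in the 3 P1 spleen libraries and the 3 WT B cell libraries; each symbol is 1 library and bars are the mean ± SD. The groups are apart in Egr1, Egr2, Egr3, Nr4a1, Dusp1 and Dusp2, and overlap in Nr4a2, Nr4a3, Ier2 and Dusp5.

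Among the EGR genes, Egr3 differed most. Egr3 (chromosome 14, 70314652 to 70320063, GRCm39) encodes a transcription factor known in lymphocytes for restraining activation together with Egr2. It had 84, 12 and 13 counts in P1 replicates 3, 4 and 5, or 7.19, 2.77 and 1.50 CPM, against 198, 181 and 234 CPM in WT A, B and C. Every P1 library lay far below every WT library, and the P1 libraries spread over 4.79 times from lowest to highest, with replicate 3 the highest. Egr3 fell by 5.69 ± 0.57 on the log2 scale (standard error; edgeR adjusted p = 0.000644), and 51 of the 15462 tested genes had a lower log2 fold change. It was called lower whichever of the 6 libraries was left out, with log2 fold changes of -6.65 to -5.29.

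Egr1 (chromosome 18, 34992876 to 34998037) is the archetype of the family and is induced by nearly every mitogen. It had 46.1, 93.1 and 109 CPM in P1 replicates 3, 4 and 5, against 425, 428 and 672 CPM in WT A, B and C. The highest P1 library was well below the lowest WT library. Egr1 averaged 82.7 ± 32.7 CPM in P1 and 508 ± 142 CPM in WT (SD, n = 3 each), 6.15-fold lower in P1 (log2 fold change -2.62 ± 0.41, edgeR adjusted p = 0.00255).

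Egr2 (chromosome 10, 67371305 to 67378018), the partner of Egr3 in restraining lymphocyte activation, showed a smaller difference. Its levels were 14.6, 26.3 and 12.8 CPM in P1 replicates 3, 4 and 5, against 40.6, 46.0 and 55.6 CPM in WT A, B and C. Replicate 4 was the highest of the P1 libraries, and the groups did not overlap. Egr2 fell by 1.42 ± 0.33 (edgeR adjusted p = 0.0144), a call that was lost without WT B (adjusted p = 0.0535) or WT C (adjusted p = 0.0559). The fourth EGR gene, Egr4, was too low to test, with 0 counts in each P1 library and 5, 3 and 7 in the WT libraries.

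Among the NR4A genes, Nr4a1 alone was called. Nr4a1 (chromosome 15, 101152150 to 101172676) had 72.3, 55.5 and 41.7 CPM in P1 replicates 3, 4 and 5, against 335, 555 and 514 CPM in WT A, B and C. The groups were far apart, and replicate 3 was the highest P1 library. It averaged 56.5 ± 15.3 CPM in P1 and 468 ± 117 CPM in WT, 8.28-fold lower in P1 (log2 fold change -3.05 ± 0.35, edgeR adjusted p = 0.000901).

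Nr4a2 and Nr4a3 were lower in level per kilobase of exon than Nr4a1 in both groups. Nr4a2 (chromosome 2, 56996842 to 57014015), best known for its role in dopamine neurons, had 11.0, 11.3 and 10.5 CPM in P1 replicates 3, 4 and 5, against 7.85, 7.61 and 11.6 CPM in WT A, B and C. The P1 values lay within 1.07 times of each other and inside the range of WT. Its log2 fold change was 0.28 ± 0.32 (edgeR adjusted p = 0.559). Nr4a3 (chromosome 4, 48045153 to 48086447), a relative that is induced with Nr4a1 by antigen, had 9.85, 5.53 and 2.08 CPM in P1 replicates 3, 4 and 5, against 9.60, 11.4 and 13.2 CPM in WT A, B and C. P1 replicate 3 lay above WT A, and the other P1 libraries lay below all WT libraries. Its log2 fold change was -0.96 ± 0.53 (edgeR adjusted p = 0.216), and without P1 replicate 3 it was -1.64 and passed (adjusted p = 0.0410).

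The fold changes of Nr4a1 and Nr4a2 were compared only as values, since the difference between genes was not tested. The shares of the NR4A genes in their summed level, which no scaling of libraries can change, were also apart. Scaled by exon length, Nr4a1 made up 82.5%, 81.0% and 80.2% of NR4A CPM per kilobase in P1 replicates 3, 4 and 5, against 96.4%, 97.7% and 96.7% in WT A, B and C. Nr4a2 made up 10.9%, 14.2% and 17.5% in P1, against 1.95%, 1.16% and 1.89% in WT.

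Dusp2 (chromosome 2, 127178079 to 127180296) encodes PAC-1, a nuclear phosphatase of MAP kinases found mainly in blood cells. It had 31.6, 52.1 and 91.9 CPM in P1 replicates 3, 4 and 5, against 350.2, 409.7 and 498 CPM in WT A, B and C. Every P1 library was far below WT, with replicate 5 the highest of the P1 libraries. Dusp2 averaged 58.5 ± 30.6 CPM in P1 and 419 ± 74.6 CPM in WT, 7.17-fold lower in P1 (log2 fold change -2.84 ± 0.43, edgeR adjusted p = 0.00231).

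Dusp1 (chromosome 17, 26724564 to 26781102) encodes the nuclear phosphatase MKP-1, which acts mainly on p38 and JNK. It had 131, 204 and 215 CPM in P1 replicates 3, 4 and 5, against 285, 525 and 665 CPM in WT A, B and C. The groups were apart, though WT A lay closer to the P1 libraries than to WT C. Dusp1 fell by 1.42 ± 0.39 (edgeR adjusted p = 0.0268). The call was lost without WT B (adjusted p = 0.0942), WT C (0.0965) or P1 replicate 3 (0.0546). Its gene model overlaps exons of Ergic1 on the opposite strand, and the counting strand is not given in the sources used here. Ergic1 itself had 192 to 445 counts in P1 and 316 to 478 in WT, below the 887 or more counts of Dusp1 in each library.

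Dusp5 (chromosome 19, 53517540 to 53530862), a nuclear phosphatase specific for ERK, was not lower in P1. It had 21.4, 18.0 and 32.0 CPM in P1 replicates 3, 4 and 5, against 7.79, 16.8 and 18.9 CPM in WT A, B and C. P1 replicate 4 lay below WT C, so the groups overlapped. Dusp5 averaged 23.8 ± 7.31 CPM in P1 and 14.5 ± 5.90 CPM in WT (log2 fold change 0.72 ± 0.40, edgeR adjusted p = 0.216). An unnamed gene on its opposite strand shares exon sequence and had at most 12 counts in any library.

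Ier2 (chromosome 8, 85387960 to 85389483) encodes a small nuclear protein induced by growth factors. It had 86.5, 143 and 222 CPM in P1 replicates 3, 4 and 5, against 213, 335 and 478 CPM in WT A, B and C. P1 replicate 5 lay just above WT A. Its log2 fold change of -1.19 ± 0.43 did not pass (edgeR adjusted p = 0.0735). It passed without P1 replicate 5 (-1.60, adjusted p = 0.0288) and with the DESeq2 test (adjusted p = 0.0388).

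The make-up of the EGR and DUSP groups was apart as well. By length-scaled level, Egr3 took 10.1%, 2.16% and 1.20% of the summed Egr1, Egr2 and Egr3 level in P1 replicates 3, 4 and 5, against 29.6%, 27.4% and 24.2% in WT A, B and C. Egr2 took 13.3% to 26.6% in P1 and 7.46% to 9.04% in WT. The shares of Egr1 overlapped between groups, at 63.5% to 85.5% in P1 and 62.5% to 68.4% in WT. Within the 3 DUSP genes, Dusp2 took 24.7% to 37.0% in P1 and 54.4% to 66.2% in WT, whereas Dusp5 took 7.65% to 13.6% in P1 and 1.19% to 1.83% in WT. The plot of shares shows the 3 groups library by library.

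**Figure D2:**
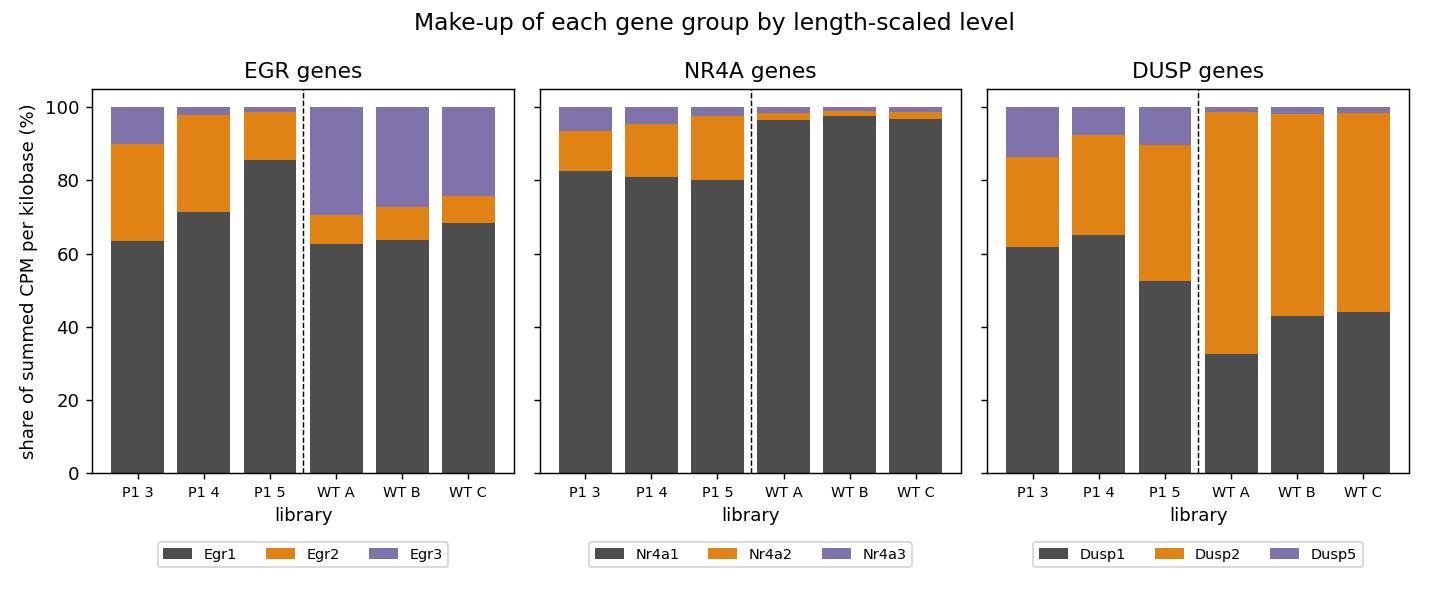
Share of each gene in the summed normalised CPM per kilobase of its group (vertical axis, percent, from 0 to 100) in the 3 P1 and 3 WT libraries, which stand left and right of the dashed line. Egr3 and Dusp2 take smaller shares in every P1 library than in any WT library, as does Nr4a1, and Egr2, Nr4a2, Nr4a3, Dusp1 and Dusp5 take larger ones.

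Set side by side per kilobase of exon, Ier2 had the highest level of the 10 in both groups, at 98.6 ± 44.5 CPM per kilobase in P1 and 224 ± 87.0 in WT. Dusp1 (55.4 ± 13.9), Dusp2 (29.2 ± 15.3), Egr1 (18.4 ± 7.28) and Nr4a1 (16.1 ± 4.36) followed in P1, and the ranges of these neighbours overlapped. In WT the order after Ier2 was Dusp2 (209 ± 37.2), Dusp1 (148 ± 58.0), Nr4a1 (133 ± 33.4) and Egr1 (113 ± 31.6), again with overlapping ranges. Egr3 stood sixth in WT at 46.3 ± 6.13, apart from both of its neighbours, and last in P1 at 0.867 ± 0.678, where it overlapped Nr4a3. Among all tested genes by this measure, Egr3 stood at percentile 16.8 in P1 and 94.7 in WT. Ier2 stood at percentile 97.8 in P1 and 99.1 in WT.

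P1 replicates did not rank alike from gene to gene. Egr3, Nr4a1 and Nr4a3 were highest in replicate 3 and lowest in replicate 5, with ratios of replicate 3 to replicate 5 of 4.79, 1.73 and 4.74. Egr1, Ier2, Dusp1 and Dusp2 were the reverse, highest in replicate 5 and lowest in replicate 3, with ratios of 0.423, 0.390, 0.607 and 0.344. In WT, 9 of the 10 genes were highest in WT C, and Nr4a1 was highest in WT B. Counts of Ighv genes other than the most counted one came to 134, 9.68 and 9.01 CPM in P1 replicates 3, 4 and 5, against 524, 659.5 and 644 CPM in WT A, B and C. Summed neutrophil markers were 8434, 1163 and 2915 CPM, macrophage and monocyte markers 2605, 699.7 and 829 CPM and T cell markers 637, 231 and 396 CPM in P1 replicates 3, 4 and 5. In WT A, B and C the macrophage and monocyte markers summed to 255, 488 and 634 CPM. The part of these cells in the spread of the 10 genes was not tested.

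**Figure D3:**
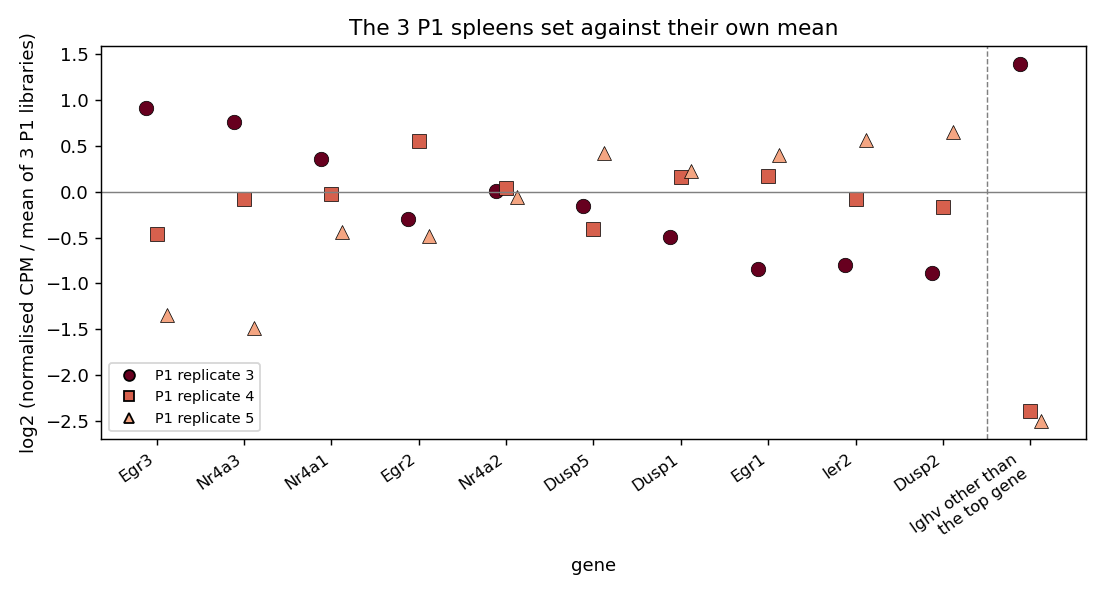
Each P1 library set against the mean of the 3 P1 libraries, as log2 of the ratio of normalised CPM (vertical axis), for the 10 genes and, right of the dashed line, for all Ighv counts outside the most counted Ighv gene. Replicate 3 lies highest for Egr3, Nr4a3, Nr4a1 and the other Ighv genes, and lowest for Dusp1, Egr1, Ier2 and Dusp2.

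P1 spleen held less B cell RNA by marker level, so the fit was repeated with libraries scaled to equal mean log2 levels of the 22 pan-B cell markers. Under TMM these markers did not fall alike, with log2 fold changes from -4.37 to -0.06 and a median of -2.38. The rescaled values are thus relative to the marker mean and are not levels per B cell. Over all tested genes the median log2 fold change became 2.71, against 0.02 under TMM, and the scaling called 87.9% of tested genes higher and 0.795% lower. Egr3 was the member still called lower, at -3.01 ± 0.67 (edgeR adjusted p = 0.00294). Nr4a1 (-0.28 ± 0.51), Dusp2 (-0.24 ± 0.46), Egr1 (0.08 ± 0.53) and Dusp1 (1.31 ± 0.57) did not pass. Egr2, Nr4a2, Nr4a3, Ier2 and Dusp5 were called higher, at 1.46, 3.00, 1.82, 1.44 and 3.31. Of the 10 genes, 2 lay above the median of all tested genes under this scaling, Nr4a2 by 0.29 and Dusp5 by 0.60. The other 8 lay below it, Egr3 at -5.72, Nr4a1 at -2.99, Dusp2 at -2.95 and Egr1 at -2.63 relative to that median. These are close to the TMM values of -5.69, -3.05, -2.84 and -2.62 by construction, since rescaling libraries moves all genes by similar amounts. Positions relative to the median, and the order of the genes, are therefore no separate evidence. The plot of fold changes under both scalings shows that the order of the genes changed little while the zero point moved.

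**Figure D4:**
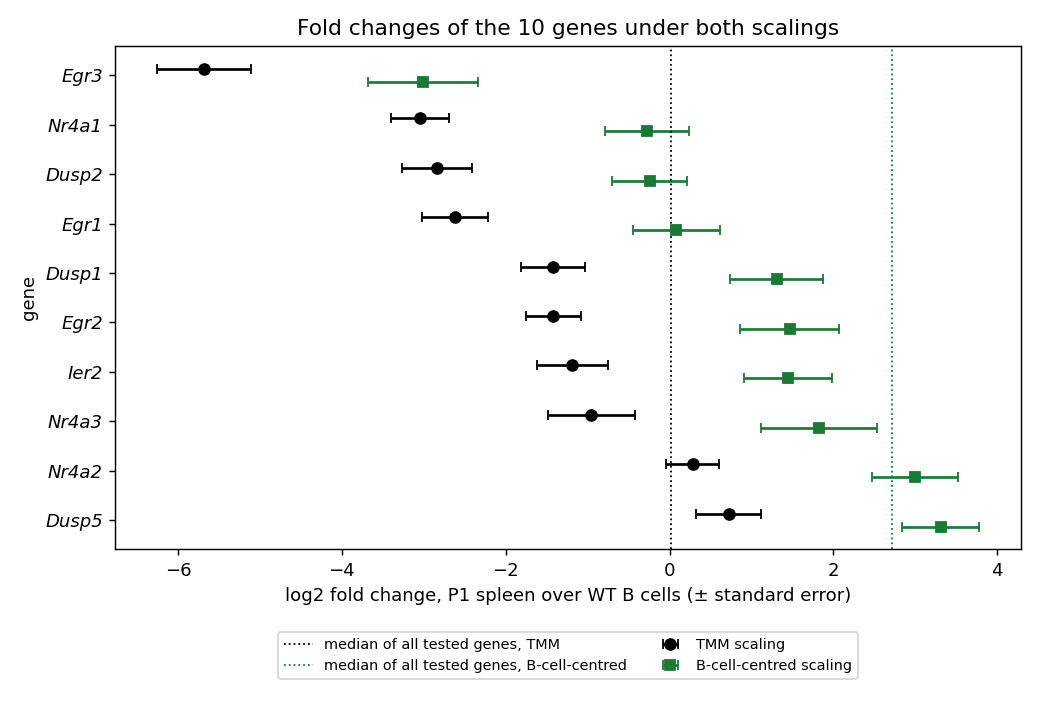
Log2 fold change of P1 spleen over WT B cells (horizontal axis, ± standard error) for the 10 genes under TMM scaling (black circles) and under scaling to equal pan-B cell marker levels (green squares); dotted lines are the medians of all tested genes, 0.02 and 2.71. Egr3 is lowest under both scalings, and Nr4a2 and Dusp5 lie right of the median under both. Positions relative to the medians are nearly the same by construction.

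The scaling shifts all genes up by construction, and the following counts are to be set beside the 87.9% of all tested genes called higher and the 0.795% called lower under it. It called 16 higher and 4 lower of 38 other immediate-early genes, 6 and 0 of 9 MAP kinase phosphatases, 9 and 0 of 10 ERK feedback inhibitors, and 18 and 1 of 20 genes of the Ras-ERK cascade. It called 13 and 0 of 16 genes of the JNK and p38 cascade and 15 and 0 of 18 promoter-binding factors. Of 16 calcium pathway genes it called 15 and 0, and of 12 genes for messenger RNA stability 9 and 0. The counts that follow are those under TMM, and with all 6 libraries their backgrounds are the 16.9% of all tested genes that were higher and the 11.0% that were lower. With 1 library left out the backgrounds move too. Of all tested genes, 5.15%, 5.01% and 6.02% were lower without WT A, B and C. Without P1 replicates 3, 4 and 5 the shares lower were 14.2%, 9.86% and 12.0%. Genes called higher numbered 1715, 1644 and 1991 without WT A, B and C. They numbered 2908, 2818 and 3207 without P1 replicates 3, 4 and 5, of 16071 to 16609 tested.

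The DUSP class as a whole was mixed. Of 10 MAP kinase phosphatases, Dusp1, Dusp2 and Dusp5 included, 9 were tested, of which 4 were lower (Dusp1, Dusp2, Dusp6 and Dusp7), 1 was higher and 4 did not pass, with a median log2 fold change of -0.81, and the number lower was 2 without WT B or WT C. The number higher was 2 without WT C or P1 replicate 4. Dusp6, a cytoplasmic phosphatase of ERK, had 43.7, 15.2 and 23.8 CPM in P1 replicates 3, 4 and 5, against 67.4, 89.5 and 93.4 CPM in WT A, B and C. It fell by 1.59 ± 0.39 (edgeR adjusted p = 0.0173), a call lost without WT B (0.0635) or WT C (0.0559). Dusp7 fell by 1.36 ± 0.22 (edgeR adjusted p = 0.00299). Dusp4, which like Dusp5 acts in the nucleus, was at -0.81 ± 0.50 (edgeR adjusted p = 0.263). The higher gene was Dusp8, with 23.7, 135 and 9.13 CPM in P1 replicates 3, 4 and 5, against 1.09, 2.49 and 5.50 CPM in WT A, B and C. It rose by 4.20 ± 1.04 (edgeR adjusted p = 0.0182), which no longer passed when WT A (0.0684), WT B (0.0806) or the filter on low counts (0.148) was left out. The summed erythroid markers were 35857, 222460 and 6625 CPM in those P1 libraries, and their part in the level of Dusp8 was not tested.

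The corepressors that EGR proteins bind, Nab1 and Nab2, were at 0.31 ± 0.26 and -0.23 ± 0.32 (edgeR adjusted p = 0.406 and 0.634). Other immediate-early genes, 40 by list and 38 tested, were 18 lower and 4 higher, with 16 that did not pass and a median log2 fold change of -1.33. Of these, Fos, an AP-1 subunit, had 74.9, 43.3 and 136 CPM in P1 replicates 3, 4 and 5, against 1370, 2120 and 2023 CPM in WT A, B and C. Fos fell by 4.43 ± 0.54 (edgeR adjusted p = 0.00100). Cd69, a surface protein that holds activated lymphocytes in tissue, fell by 4.08 ± 0.39 (edgeR adjusted p = 0.000579), and both were still called lower under B-cell-centred scaling (-1.95 and -1.53). Klf2, a transcription factor of resting lymphocytes, fell by 3.13 ± 0.45 (edgeR adjusted p = 0.00204) and was at -0.55 under that scaling. With Klf2 in the list, the 18 lower genes are not all genes known to rise when lymphocytes are activated.

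Feedback inhibitors of the Ras-ERK cascade were 2 lower and 2 higher of 10 tested, and 6 did not pass. Rasa2, a Ras GTPase-activating protein, fell by 1.59 ± 0.32 and Sh2b3, an adaptor that dampens cytokine signalling, by 1.53 ± 0.27 (edgeR adjusted p = 0.00746 and 0.00418). Spred3 rose by 2.84 ± 0.51 and Spred1 by 1.78 ± 0.43 (edgeR adjusted p = 0.00433 and 0.0158). Both belong to a family that blocks the activation of Raf, and Spred1 no longer passed without WT A (0.0778), without WT B (0.0794) or with library totals as the scaling (0.0568). Spry1, Spry2 and Spry4, inhibitors of the cascade that ERK itself induces, were at 0.43 ± 0.81, -0.32 ± 0.53 and 0.26 ± 0.77, and none of them passed.

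In the Ras-ERK cascade itself, 3 of 20 genes were lower, 2 were higher and 15 did not pass, with a median log2 fold change of -0.0027. With 1 library left out, the number lower ran from 3 to 7, highest without P1 replicate 3, and the number higher was 0 without WT A, WT B or WT C and 1 without P1 replicate 3 or 4. Rasgrp3, which loads Ras with GTP below the B cell receptor, had 9.34, 5.07 and 6.82 CPM in P1 replicates 3, 4 and 5, against 192, 229 and 187 CPM in WT A, B and C. It fell by 4.82 ± 0.33 (edgeR adjusted p = 0.000337) and was at -2.19, again called lower, with libraries centred on B cell markers. Rasgrp2 and the ERK kinase Map2k1 fell by 1.89 ± 0.37 and 1.28 ± 0.27 (edgeR adjusted p = 0.00665 and 0.00901), and under B-cell-centred scaling they were at 0.69 and 1.36, the second called higher. Grb2 was at -0.88 ± 0.32 and did not pass (edgeR adjusted p = 0.0728), but passed without P1 replicate 3 (0.0470), without the filter on low counts (0.0490) and with DESeq2 (0.0282).

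Of 16 tested genes of the JNK and p38 cascade, 4 were lower and 2 higher, and 10 did not pass. The number lower was 1 without WT A or WT B and 2 without P1 replicate 3, and the number higher was 4 without P1 replicate 4. Mapk12, a p38 kinase, fell by 2.60 ± 0.37 (edgeR adjusted p = 0.00192). Mapk13, another p38 kinase, had 29.5, 25.8 and 18.1 CPM in P1 replicates 3, 4 and 5, against 0.0604, 0 and 0.0753 CPM in WT A, B and C (edgeR adjusted p = 0.000343). Map2k3, which activates p38, rose by 1.43 ± 0.28 (edgeR adjusted p = 0.00676), a call lost with library totals as the scaling (0.0706).

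Genes for factors that act on immediate-early promoters were counted next. Of 18 serum response factor, ternary complex, CREB and MEF2 genes, 4 were lower and 14 did not pass, with a median log2 fold change of -0.53, and 1 was lower without WT A and 2 without WT B. Without P1 replicate 5, 1 was called higher. Mef2c, a calcium-regulated factor of mature B cells, had 72.4, 75.4 and 69.6 CPM in P1 replicates 3, 4 and 5, against 380.2, 529 and 348 CPM in WT A, B and C. Mef2c fell by 2.53 ± 0.29 (edgeR adjusted p = 0.000827). Crtc1, a CREB coactivator, fell by 1.08 ± 0.24 (edgeR adjusted p = 0.0105), but not without WT A (0.0647). Elk3, a ternary complex factor, fell by 1.48 ± 0.38 (edgeR adjusted p = 0.0212), though not when WT A (0.0692), WT B (0.0817) or P1 replicate 4 (0.0543) was left out.

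Of 16 calcium, calcineurin and NFAT genes, 4 were lower and 12 did not pass, with a median log2 fold change of -0.59, and 2 were lower without WT A. Itpr3, a calcium channel of the endoplasmic reticulum, had 92.2, 89.9 and 95.9 CPM in P1 replicates 3, 4 and 5, against 786, 640.2 and 669.9 CPM in WT A, B and C. It fell by 2.91 ± 0.29 (edgeR adjusted p = 0.000599). The calcineurin subunit Ppp3ca fell by 1.32 ± 0.25 and the related channel Itpr2 by 1.19 ± 0.26 (edgeR adjusted p = 0.00599 and 0.0105), the second not without WT A (0.0563). Plcg2, the phospholipase that B cell receptor signalling activates, was at -0.52 ± 0.28 (edgeR adjusted p = 0.203).

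Of 12 genes for regulators of messenger RNA stability, 4 were lower and 8 did not pass. The plot labels this list AU-rich mRNA decay factors, but not all of its genes act through AU-rich elements or promote decay. Zfp36, which binds AU-rich elements and stands in the list of other immediate-early genes too, fell by 3.23 ± 0.45 (edgeR adjusted p = 0.0017). Its relative Zfp36l1 had 132, 169.6 and 184 CPM in P1 replicates 3, 4 and 5, against 598, 855 and 709.99 CPM in WT A, B and C, and fell by 2.16 ± 0.31 (edgeR adjusted p = 0.00197). Zc3h12a, the ribonuclease Regnase-1, fell by 2.12 ± 0.27 (edgeR adjusted p = 0.00122). Under B-cell-centred scaling these 3 were at -0.47, 0.58 and 0.63, and none of them passed. The plot of fold changes by list sets these groups beside the 10 genes.

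**Figure D5:**
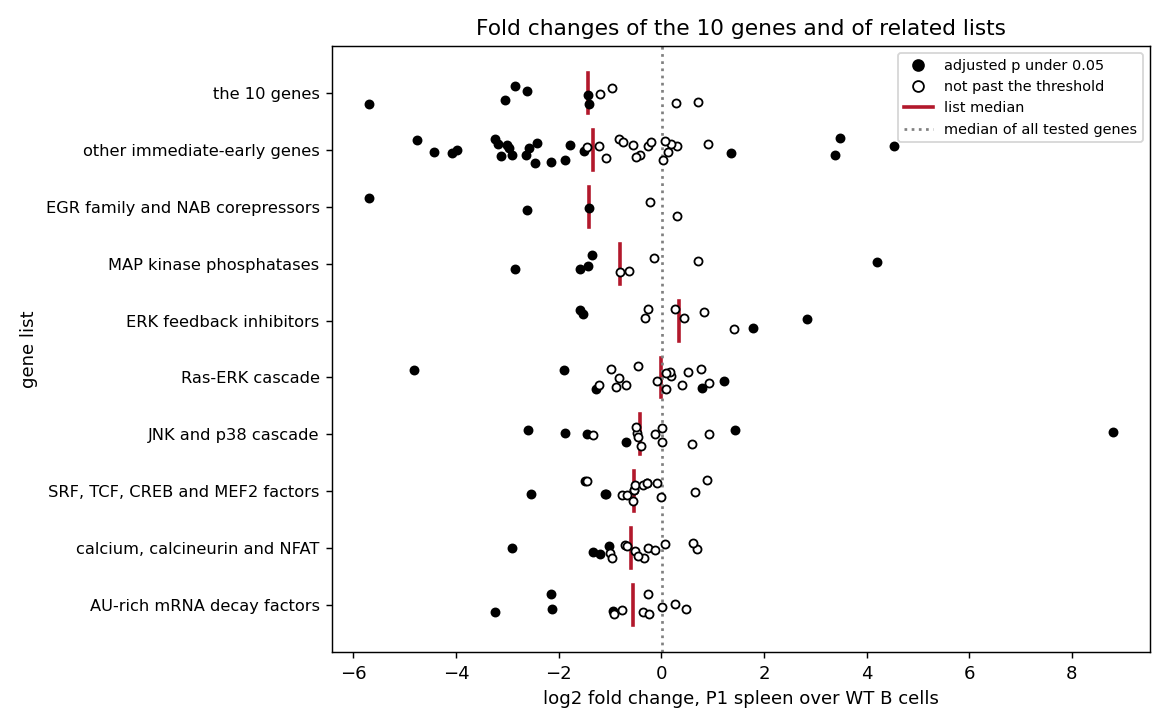
Log2 fold change of P1 spleen over WT B cells (horizontal axis) of each tested gene, with 1 row per list; filled points have an edgeR adjusted p under 0.05, red bars are list medians and the dotted line is the median of all tested genes, 0.02. The medians of the 10 genes (-1.42) and of other immediate-early genes (-1.33) lie left of those of the Ras-ERK cascade (-0.0027) and of the ERK feedback inhibitors (0.35).

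The tested genes outside all lists that were most like the 10 genes were found by Pearson correlation of log2 CPM over the 6 libraries with the mean standardised profile of the 10. They were 1700056E22Rik (r = 0.985), Thbs3 (0.984), Slc25a25 (0.979), Opa3 (0.974) and Yrdc (0.968), and all 6 libraries of these values are shared with the group comparison. Slc25a25, a mitochondrial carrier of ATP and phosphate, had 21.7, 23.5 and 23.8 CPM in P1 replicates 3, 4 and 5, against 31.4, 40.7 and 42.0 CPM in WT A, B and C. Of the 5, Yrdc passed the test of the groups (log2 fold change -0.87 ± 0.26, edgeR adjusted p = 0.0359). Against the same mean profile, r was 0.970 for Dusp1 and 0.93 for Egr1, whereas it was -0.263 for Nr4a2 and -0.319 for Dusp5. Each of the 10 genes is itself part of that profile, which raises its r by construction.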

How the data were processed

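The authors deposited raw counts per gene for 6 libraries in 1 table. Per the submitters' processing notes, Trim Galore, HISAT2 and featureCounts were used with GRCm39. Their options and versions, and the strand counted, are not given in the sources used here. Per the labels, 50 ng of total RNA went into NEBNext Ultra Directional libraries. Symbols were assigned by Ensembl gene ID to 51948 of 56884 genes.

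Genes were filtered with filterByExpr, scaled by TMM and compared by the quasi-likelihood test of edgeR 4.0.16 in R 4.3.3, with robust dispersion and no covariates, P1 spleen over WT B cells, adjusted by Benjamini-Hochberg over all 15462 tested genes at 0.05. The test was run on simulated counts with known fold changes, with as many genes raised as lowered. The simulation did not hold the difference in cell content between these groups, so it does not show how the test performs under it. The standard error is the log2 fold change divided by the root of the F statistic. Per-length levels use the exon length of the deposited table. Alternatives were DESeq2 (1.42.0), limma-voom (3.58.1), other scalings, no filter and each library left out. The members and lists were chosen with earlier results of these data known. Of 257 entries in the other 19 lists, 256 matched a gene. Besides the 10 genes, the text names from each list at most the 3 genes with the smallest p and the 1 with the highest mean, any gene of a list of 10 or fewer, and the 5 genes most alike whose group means reach 5 CPM in P1 or WT. Ier3, Fosl2, Nfil3, Klf10 and Hspa1a fall outside this rule and were chosen after their values were seen. Log2 CPM for that likeness used a prior count of 2.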

Additional observations from a re-analysis of the deposited data

How the results depend on the processing

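Over 13 alternatives, 111 of 130 log2 fold changes of the 10 genes kept their direction and side of the threshold. Under B-cell-centred scaling the log2 fold change of Egr1 turned to 0.084, Egr2 to 1.46, Nr4a3 to 1.82, Ier2 to 1.44 and Dusp1 to 1.31. That scaling gave 1 of the 10 lower and 5 higher, and 13595 genes higher and 123 lower, against 2618 and 1702 under TMM; its construction moves all genes up. Without 1 library in turn, 4 to 7 of the 10 were lower, 1644 to 3207 of all genes were higher and 815 to 2313 lower. The lowest counts of all genes came without WT B; the cause was not tested. With library totals as the scaling, all genes had a median of -0.25 on the log2 scale, and the setting passed Ier2 (adjusted p = 0.0495), as did no filter (adjusted p = 0.0131). Leaving mitochondrial genome genes out, with TMM scaling kept, gave 6 of the 10 lower, against 11.0% of all 15511 genes tested in that setting. Depth limits Egr3, which rested on 12 and 13 counts in P1 replicates 4 and 5. No paired analysis was run because the labels give no pairing between WT and P1 mice. The WT column names also cannot be matched to a numbered mouse.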

Other observations

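Among the 40 other immediate-early genes, 38 were tested and 4 were called higher in P1, against 16.9% of all tested genes. These 4 are named because they were called, after their values were seen. Ier3, which limits apoptosis, averaged 13.4 ± 7.93 CPM in P1 and 0.579 ± 0.412 CPM in WT (edgeR adjusted p = 0.00229, n = 3 per group). Fosl2, an AP-1 subunit, averaged 133 ± 105 CPM in P1 and 11.9 ± 3.15 CPM in WT (edgeR adjusted p = 0.00362). Nfil3, a basic leucine zipper repressor, averaged 45.5 ± 24.1 CPM in P1 and 4.35 ± 2.94 CPM in WT (edgeR adjusted p = 0.00371). Klf10, induced by TGF-beta, averaged 27.6 ± 15.4 CPM in P1 and 10.7 ± 1.65 CPM in WT (edgeR adjusted p = 0.0469), a call lost without any of WT A, B or C or P1 replicates 3 or 4 (0.0759 to 0.166), with library totals as the scaling (0.164) and with limma-voom (0.0714).

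Of 13 heat shock genes, 6 were lower and 1 was higher in P1 under TMM, against 11.0% and 16.9% of all tested genes. Their median log2 fold change was -0.76. Hspa1b, a stress-inducible chaperone of the HSP70 family, had 3.85, 4.84 and 1.27 CPM in P1 replicates 3, 4 and 5, against 208, 480 and 257 CPM in WT A, B and C. It fell by 6.60 ± 0.61 (edgeR adjusted p = 0.000569), with every P1 library far below every WT library. Its near-identical copy Hspa1a, named after its values were seen, averaged 2.61 CPM in P1 and 165 CPM in WT, and the split of reads between both copies is uncertain. Dnajb1 and Hsph1, both induced by heat shock factor, fell by 2.34 ± 0.29 and 2.67 ± 0.34 (edgeR adjusted p = 0.00110 and 0.00121). With libraries centred on B cell markers, 2 of the 13 were lower and 8 higher, against 0.795% and 87.9% of all tested genes. Hspa1b at -3.72 and Hspa1a at -3.11 were still called lower (edgeR adjusted p = 0.00216 and 0.0137). Dnajb1 and Hsph1 were at 0.46 and -0.04 under that scaling and did not pass. The most abundant of the list, Hsp90ab1, was at 0.06 ± 0.41 under TMM (edgeR adjusted p = 0.929).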
